A study of Mus musculus with 6 samples.

Results

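The 8 genes described here carry glucose and fructose from the blood to pyruvate in the liver, and they were followed across 6 mouse livers. They are Slc2a2, Gckr, Pfkl, Pfkfb1, Pfkfb3, Pklr, Khk and Tkfc, taken as a fixed list of 8 gene symbols from a count table of 37991 Ensembl gene IDs, and all 8 were found and passed the filter on low counts, among 14686 genes tested. The livers came from 12-week-old male mice, 3 of strain C57BL/6J (wild type, WT) and 3 labelled B6.Zpbp2-/-, with both copies of Zpbp2 knocked out (here Zpbp2 KO). Zpbp2 encodes zona pellucida binding protein 2, known from the sperm head. Which part of the gene is removed, the feeding state and the hour of collection were not given in the sources used here.

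Hepatocytes take up both sugars through the carrier GLUT2. Glucose is then phosphorylated, a step under the control of the regulatory protein encoded by Gckr, and it enters glycolysis at phosphofructokinase, an enzyme switched on by fructose 2,6-bisphosphate. Fructose passes around that control point through ketohexokinase and, further on, triokinase, and both routes meet at the triose phosphates and end with pyruvate kinase. The sugar-responsive factor ChREBP (gene Mlxipl) is known to raise the transcription of pyruvate kinase and other steps after a carbohydrate meal.

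The upstream sequence of Pklr, the liver and red cell pyruvate kinase gene, is shown because it holds a match to the carbohydrate response element, the motif through which ChREBP is known to act, and short stretches before Khk and Pfkfb3 are shown because they hold a single E-box, a motif whose variants make up that element. All are RefSeq sequences on GRCm38.p6, which is not the build of the counts. Capitals mark the matched letters, CACGNG and CNCGTG with 5 bases between them for the full element of 17 bases and CACGTG for the E-box, both searched on both strands.
Pklr, chr3:89136373-89136571, plus strand: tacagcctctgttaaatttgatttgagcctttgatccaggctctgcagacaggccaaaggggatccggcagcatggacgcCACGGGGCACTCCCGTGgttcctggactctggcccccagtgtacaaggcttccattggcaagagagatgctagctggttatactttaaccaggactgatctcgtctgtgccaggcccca
Khk, chr5:30921476-30921505, plus strand: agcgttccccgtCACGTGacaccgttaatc
Pfkfb3, chr2:11502126-11502155, minus strand: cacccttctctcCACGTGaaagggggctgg

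The Pklr element began 170 bases before the second of 2 RefSeq starts of the gene, and no match lay in the window of the other start. Over all genes, windows from 250 bases before to 50 after a start held the full element in 0.046% of 32851 windows, at 14 of 27025 genes, and the E-box in 7.15% of windows. The full element can hold an E-box, but the match in Pklr does not. All 8 genes had at least 1 window, 13 in all, and matches were found for Pklr (the full element), Khk and Pfkfb3 (the E-box). The match in Khk began 71 bases before its start. That in Pfkfb3 began 53 bases before 1 of its 2 RefSeq starts, and no match lay in the window of the other. Of the 14 genes with the full element, 6 were tested in liver, with log2 fold changes (Zpbp2 KO over WT) from -0.14 for Crybg3 to 0.41 for Pklr. A match is a string of letters and not a measured site.

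Total counts ran from 37904891 to 52955687 per library. Zpbp2 had 4, 13 and 7 counts in WT replicates 1 to 3 and 0 in each Zpbp2 KO library, and these few counts are a weak check of the labels. Hepatocyte markers were high in every library, with 9 of 10 listed markers matched and a summed level of 98589 to 107895 CPM (counts scaled to a common library size) in WT and 110533 to 116318 CPM in Zpbp2 KO livers. These sums did not overlap, but Alb made up most of each, and its own levels overlapped (66094 to 75168 and 73983 to 76967 CPM). Taken singly, only Ass1 did not overlap between groups, a pattern that 11.6% of all tested genes showed in either direction. Of the tested hepatocyte markers 9 of 9 lay above 0 (median log2 fold change 0.16, 0 called), beside 52.9% of all tested genes. The part of these markers in the values below was not tested. Of the 6 libraries 3 stood apart. WT replicate 1 held transcripts of skeletal muscle, with 142 CPM summed over 8 markers against 0.105 to 0.307 CPM in the other libraries. Zpbp2 KO replicate 1 held pancreatic transcripts, such as Pnlip at 27.2 CPM against at most 0.175 CPM elsewhere. Zpbp2 KO replicate 2 had the lowest sums of endothelial markers (183 CPM, other libraries 264 to 424 CPM) and of Kupffer cell markers (167 CPM, other libraries 296 to 535 CPM). In whole tissue, fewer cells of a type and less RNA per cell cannot be told apart.

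The 8 genes spanned a wide range of levels. Per kilobase of exon, Khk was highest in WT livers at 223 ± 6.48 CPM per kb (mean ± SD, n = 3, as for all values in this form), 2.19 times Tkfc at 102 ± 7.52. Pklr followed at 94.7 ± 23.2 and did not differ from Tkfc beyond the spread between livers. Slc2a2 at 47.0 ± 15.4 and Gckr at 45.0 ± 3.39 CPM per kb overlapped each other and lay below Pklr in every WT liver. Pfkl at 5.93 ± 0.260 and Pfkfb1 at 5.37 ± 1.19 CPM per kb also overlapped, and Pfkfb3 was lowest at 1.52 ± 0.954. Among all tested genes ranked by this measure, Khk lay at percentile 98.6 and Pfkfb3 at percentile 41.2. Levels per kilobase rest on exon lengths of GENCODE M21 on GRCm38 that sum all annotated exons of a gene, so a gene with long rare exons is understated. Whether the counts cover whole exons or coding sequence only was not given in the sources used here. If coding sequence only, these lengths are not those counted, and every order or share per kilobase, here and below, could change.

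None of the 8 genes was called different between genotypes. Over all 14686 genes, the quasi-likelihood F-test of edgeR, adjusted after Benjamini and Hochberg, called 2, which is 0.0136%, and DESeq2 called 76, which is 0.518%, and both tools called 0 of the 8. At an unadjusted p below 0.05, edgeR had 1 of the 8, Pfkfb1, higher in Zpbp2 KO livers, against 2.86% of all tested genes higher and 2.93% lower at that threshold. Of the 8 log2 fold changes 7 were above 0, with a median of 0.19, beside 52.9% above 0 and a median of 0.01 over all tested genes. In Zpbp2 KO replicate 2, 5 of the 8 genes (Gckr, Pfkfb1, Pklr, Khk and Tkfc) had their highest level of all livers. The share of all tested genes that were highest in that liver was not counted, so this is no trait of the 8. Summed hepatocyte markers were also highest there (116318 CPM), and their part in this was not tested. Without that liver 7 of the 8 values were again above 0, with Pfkl at 0.04 and Tkfc at -0.12. Without WT replicate 1 and Zpbp2 KO replicate 1, the libraries with muscle and pancreatic transcripts, 7 were above 0 and 0 were called. This compares 2 livers with 2 and was chosen after the data were seen. Values rose to 0.51 for Slc2a2, 1.32 for Pfkfb3, 0.82 for Pklr and 0.28 for Tkfc, and that of Pfkfb1 fell to 0.42.

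**Figure D1:**
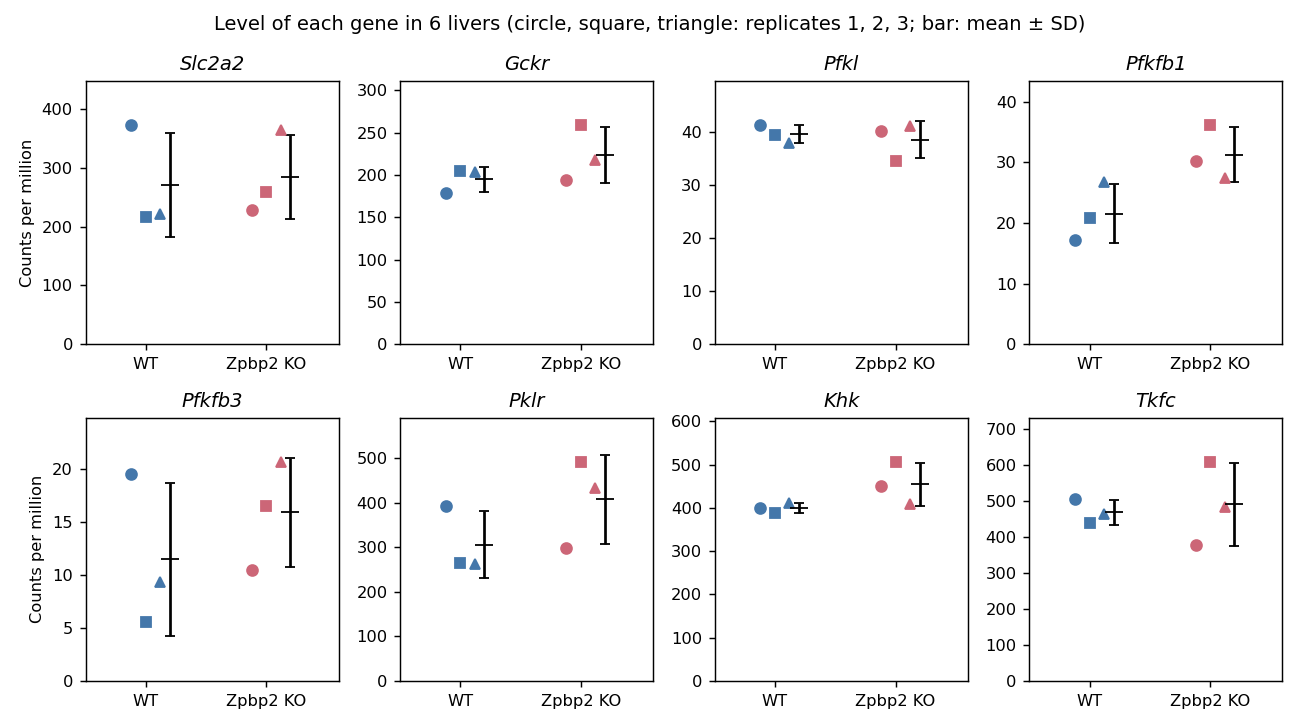
Level of the 8 genes (y axis, CPM from 0, TMM-scaled) in 3 WT and 3 Zpbp2 KO livers; symbols stand for replicates 1, 2 and 3 and bars for mean ± SD. Only for Pfkfb1 do the 2 groups not overlap, with 17.2 to 26.7 CPM in WT and 27.4 to 36.2 CPM in Zpbp2 KO livers.

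Slc2a2 (ENSMUSG00000027690, chromosome 3) encodes GLUT2, the low-affinity carrier that lets glucose and fructose equilibrate across the hepatocyte membrane. It stood at 373, 217 and 222 CPM in WT replicates 1 to 3 and at 229, 259.6 and 365 CPM in Zpbp2 KO replicates 1 to 3. One liver of each genotype, WT replicate 1 and Zpbp2 KO replicate 3, was high and the other 4 lay close together, so the groups overlapped fully. Zpbp2 KO over WT, the log2 fold change was 0.07 ± 0.245 (SE), with a 95% interval from -0.49 to 0.63 and a Benjamini-Hochberg-adjusted p of 0.969 in edgeR. Its sign turned when WT replicate 2 or 3 or Zpbp2 KO replicate 3 was left out. Slc2a2 made up 67.7 ± 6.55% of the summed per-kilobase level of the listed Slc2a carriers in WT and 70.1 ± 3.53% in Zpbp2 KO livers (two-sided exact permutation test, p = 0.7, n = 3 each).

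Gckr (ENSMUSG00000059434, chromosome 5) encodes a hepatocyte protein that binds sugar phosphates and controls the phosphorylation of glucose. Its levels were 178, 204 and 203 CPM in WT and 194, 259 and 217 CPM in Zpbp2 KO livers. Zpbp2 KO replicate 2 was highest and the remaining 5 livers lay within 178 to 217 CPM. Its log2 fold change of 0.19 ± 0.126 had a Benjamini-Hochberg-adjusted p of 0.798 in edgeR, and it came to 0.07 without Zpbp2 KO replicate 2. With each library left out in turn it ran from 0.07 to 0.29.

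**Figure D2:**
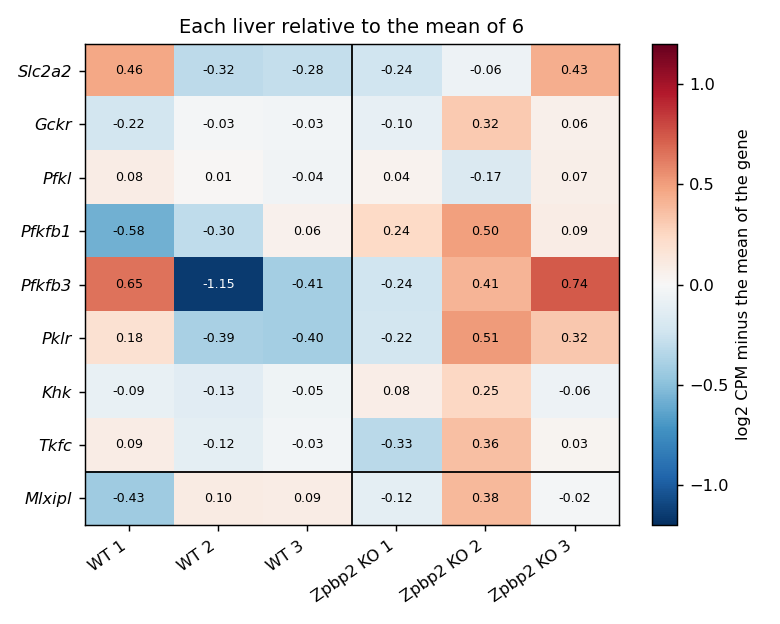
Log2 CPM of each gene in each liver minus the gene's mean over the 6 livers (colour and printed value); columns are livers, rows are the 8 genes and, below the line, Mlxipl. Pfkfb1 and Pklr reach 0.50 and 0.51 in Zpbp2 KO replicate 2, and Slc2a2 and Pfkfb3 are both high in WT replicate 1 (0.46 and 0.65) and Zpbp2 KO replicate 3 (0.43 and 0.74).

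Pfkl (ENSMUSG00000020277, chromosome 10) encodes the liver subunit of phosphofructokinase. It was among the steadiest of the 8 genes, at 41.4, 39.4 and 38.0 CPM in WT and 40.2, 34.6 and 41.1 CPM in Zpbp2 KO livers. Between genotypes, the log2 fold change of -0.04 ± 0.103 had a 95% interval from -0.27 to 0.20, a fold of 0.83 to 1.15 (edgeR, Benjamini-Hochberg-adjusted p = 0.959). The other subunits stood at 25.0 ± 5.15 and 20.9 ± 1.63 CPM for Pfkm, the muscle type, and at 2.89 ± 0.381 and 3.28 ± 0.730 CPM for Pfkp, the platelet type, in WT and Zpbp2 KO livers. In CPM, Pfkl was above Pfkm in every liver (34.6 to 41.4 against 19.2 to 30.9 CPM). Division by exon lengths of 6675 bases for Pfkl and 3340 for Pfkm reversed this order. Per kilobase, Pfkm was above Pfkl in every liver, with 50.3% to 59.0% of the summed level of the 3 subunits. Pfkl took 39.5%, 46.1% and 45.9% of that sum in WT and 47.7%, 46.7% and 46.8% in Zpbp2 KO livers. The groups did not overlap, and a two-sided exact permutation test returned p = 0.1, below which 3 livers against 3 cannot go (0.5 after Benjamini-Hochberg adjustment over 5 shares). WT replicate 1, the lowest, is the library with muscle transcripts and had the highest Pfkm (30.9 CPM, other livers 19.2 to 22.4 CPM), and without it the difference in share was 1.03 in place of 3.22 percentage points. The part of the muscle transcripts in this share was not tested. With shares of counts, not scaled by length, the difference was 2.57 points and the groups overlapped (two-sided exact permutation test, p = 0.3, n = 3 each).

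The PFKFB enzymes make and break fructose 2,6-bisphosphate. Pfkfb1 (ENSMUSG00000025271, chromosome X), the liver isozyme, stood at 17.2, 20.8 and 26.7 CPM in WT and at 30.3, 36.2 and 27.4 CPM in Zpbp2 KO livers. Every Zpbp2 KO liver was above every WT liver, by a margin of 27.4 against 26.7 CPM at its narrowest, a pattern that 5.56% of all tested genes showed in this direction. For Pfkfb1 the log2 fold change was 0.54 ± 0.177, a fold of 1.45 with a 95% interval from 1.10 to 1.93, and the Benjamini-Hochberg-adjusted p was 0.798 in edgeR (unadjusted p = 0.0150). DESeq2 gave an adjusted p of 0.399, and adjusted p-values over all alternatives lay between 0.291 and 1.00. With each library left out in turn the log2 fold change ran from 0.40 to 0.70. The lowest liver, WT replicate 1, was the one with muscle transcripts, and the log2 fold change was 0.40 without it. Apex2 on the opposite strand shares 3.06% of the exon bases of Pfkfb1.

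Pfkfb3 (ENSMUSG00000026773, chromosome 2), the inducible isozyme with high kinase activity, varied most among the 8 genes. Its levels were 19.5, 5.59 and 9.33 CPM in WT and 10.5, 16.5 and 20.7 CPM in Zpbp2 KO livers, a 3.50-fold range within WT. High and low livers occurred in both genotypes. Its log2 fold change of 0.47 ± 0.426 had a 95% interval from -0.51 to 1.45 and a Benjamini-Hochberg-adjusted p of 0.842 in edgeR. It went from 0.14 without WT replicate 2 to 1.10 without WT replicate 1, the library with muscle transcripts, at a Benjamini-Hochberg-adjusted p of 0.683 in edgeR in the latter case. Whether the muscle transcripts bear on the level of Pfkfb3 in that library was not tested. Summed Kupffer cell markers stood at 424, 339 and 296 CPM in WT and at 493, 167 and 535 CPM in Zpbp2 KO livers, and their part in the level of Pfkfb3 was not tested.

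Among the 4 PFKFB genes, Pfkfb1 took 45.1 ± 5.73% of the summed per-kilobase level in WT and 52.7 ± 6.91% in Zpbp2 KO livers (two-sided exact permutation test, p = 0.2, n = 3 each). Pfkfb3 took 13.2 ± 9.23% and 14.1 ± 4.03% (two-sided exact permutation test, p = 0.9, n = 3 each). Pfkfb2, the heart type, stood at 27.6, 38.3 and 35.5 CPM in WT replicates 1 to 3, above Pfkfb1 in every WT liver (17.2 to 26.7 CPM). In Zpbp2 KO replicates 1 to 3 Pfkfb2 stood at 24.3, 43.6 and 35.5 CPM. That was below Pfkfb1 in replicate 1 (30.3 CPM) and above Pfkfb1 in replicates 2 and 3 (36.2 and 27.4 CPM). Per kilobase, with exon lengths of 7254 bases for Pfkfb2 and 4017 for Pfkfb1, Pfkfb2 stood at 4.66 ± 0.769 in WT and overlapped Pfkfb1. The log2 fold change of Pfkfb2 was 0.03 ± 0.213. Pfkfb4, the testis type, was scarce at 1.25 ± 0.214 and 1.22 ± 0.245 CPM. Fbp1, fructose bisphosphatase, which the same metabolite inhibits, stood at 956 ± 113 and 933 ± 67.6 CPM (log2 fold change -0.03 ± 0.116).

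**Figure D3:**
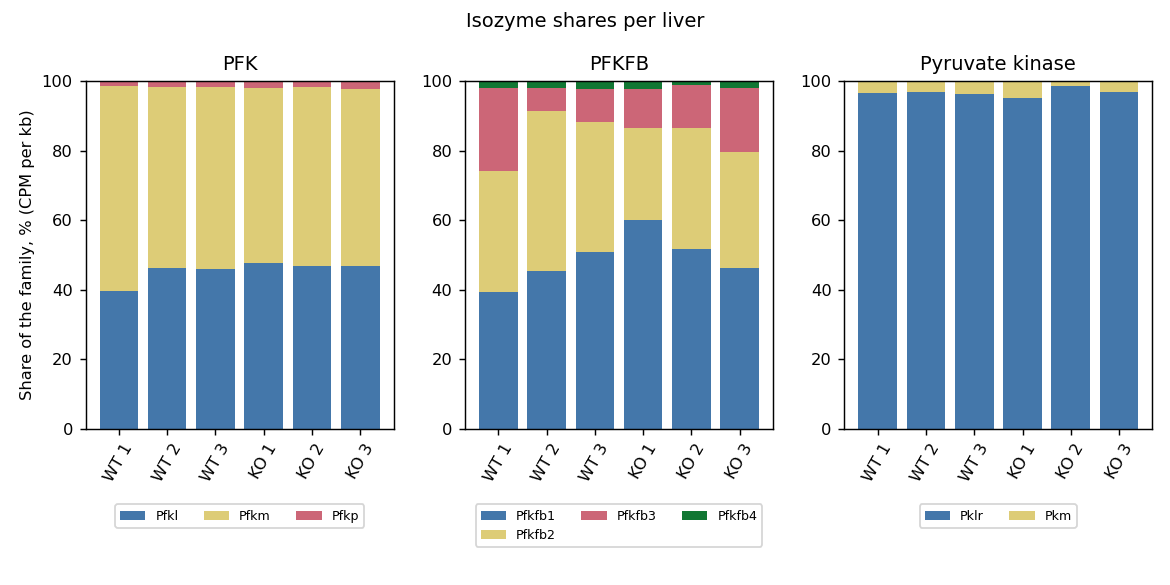
Share of each isozyme in the summed CPM per kilobase of its family (y axis, 0 to 100%) in each of 6 livers, for the phosphofructokinases (PFK), PFKFB enzymes and pyruvate kinases. Pklr makes up nearly all of its family in every liver (98.5% at most), whereas the share of Pfkfb3 runs from 6.46% in WT replicate 2 to 23.7% in WT replicate 1.

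Pklr (ENSMUSG00000041237, chromosome 3) ends the pathway, making pyruvate and ATP. It stood at 393, 264 and 262 CPM in WT and at 298, 493 and 434 CPM in Zpbp2 KO livers. The 2 highest livers were Zpbp2 KO replicates 2 and 3, and WT replicate 1 lay above Zpbp2 KO replicate 1, so the groups overlapped. The log2 fold change of 0.41 ± 0.218, a fold of 1.33 with a 95% interval from 0.94 to 1.89, had a Benjamini-Hochberg-adjusted p of 0.798 in edgeR. It was 0.63 without WT replicate 1, 0.26 without Zpbp2 KO replicate 2, and 0.82 without both libraries that hold transcripts of other tissues (WT replicate 1 and Zpbp2 KO replicate 1), a comparison of 2 livers with 2 chosen after the data were seen (edgeR, Benjamini-Hochberg-adjusted p = 0.323). Pklr made up 96.5 ± 0.362% of the per-kilobase level of Pklr and Pkm, the muscle-type pyruvate kinase, in WT and 96.8 ± 1.73% in Zpbp2 KO livers (two-sided exact permutation test, p = 0.8, n = 3 each). Pklr is also the red cell enzyme, and 8 erythroid markers summed to 154, 227 and 226 CPM in WT and 308, 359 and 170 CPM in Zpbp2 KO livers (5 of 5 tested above 0, median log2 fold change 1.21, 0 called). Alas2 alone held 128 to 181 CPM of these sums. The globin gene Hbb-bs varied more, at 14.4, 43.6 and 31.5 CPM in WT and 97.5, 97.8 and 23.7 CPM in Zpbp2 KO livers. The part of the erythroid markers in the value of Pklr was not tested. Transcripts from the 2 starts of Pklr are summed in the counts. Hcn3 on the opposite strand, with 748 counts over the 6 libraries, shares 22.0% of the exon bases of Pklr.

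Khk (ENSMUSG00000029162, chromosome 5) encodes ketohexokinase, which phosphorylates fructose at its first carbon. WT livers lay within 388 to 411 CPM (400.2, 388 and 411 CPM in replicates 1 to 3), a ratio of 1.06 between highest and lowest, and Zpbp2 KO livers stood at 450.3, 507 and 408 CPM. Replicates 1 and 2 of the knockout lay above all WT livers and replicate 3 within them. The log2 fold change of 0.19 ± 0.105 had a 95% interval from -0.06 to 0.43 and a Benjamini-Hochberg-adjusted p of 0.798 in edgeR. It came to 0.07 once trends with GC content and length were removed from every library and to 0.10 without Zpbp2 KO replicate 2.

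Tkfc (ENSMUSG00000034371, chromosome 19) encodes triokinase, which phosphorylates the glyceraldehyde released from fructose 1-phosphate. It stood at 506, 438 and 464 CPM in WT and at 379, 610 and 485 CPM in Zpbp2 KO livers. Both the lowest and the highest liver were knockouts, and the log2 SD was 0.343 among them and 0.106 among WT livers, beside medians of 0.164 and 0.113 over the 8377 tested genes whose mean log2 CPM reached 3. The log2 fold change of 0.07 ± 0.166 had a Benjamini-Hochberg-adjusted p of 0.948 in edgeR and turned to -0.12 without Zpbp2 KO replicate 2. The exons of Tkfc overlap those of Cyb561a3 and Ddb1 on the opposite strand by 12.9% and 7.10%. Those genes had 5700 and 69599 counts over the 6 libraries, where Tkfc had 17719 to 27820 counts in each, and the strand setting of the counting was not given in the sources used here.

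**Figure D4:**
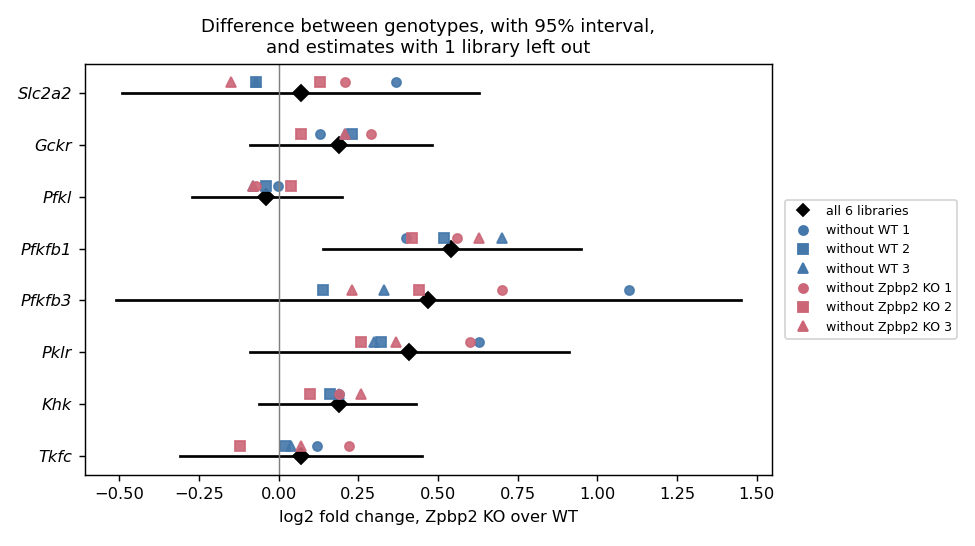
Log2 fold change of each gene, Zpbp2 KO over WT (x axis), with all 6 libraries (black diamond, line: 95% interval of the edgeR fit) and with 1 library left out (coloured symbols). The interval of Pfkfb1 runs from 0.14 to 0.95 before adjustment for 14686 genes, and those of the other 7 genes cross 0.

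Another 63 genes of sugar uptake, glycolysis, fructose breakdown and their regulation were read from the same fit, of which 56 were tested. Of these, 0 were called by edgeR or by DESeq2, 30 lay above 0 and 26 below, and the median log2 fold change was 0.03. At an unadjusted p below 0.05 there were 0 higher and 1 lower (Arrdc4), where 5.79% of all tested genes passed in either direction. In 3 of them the groups did not overlap, all higher in Zpbp2 KO livers, against 11.6% of all tested genes in either direction. These were Slc2a3, Akr1b3 and Foxo1, the last named after its values were seen (36.1 ± 0.299 and 37.8 ± 0.837 CPM).

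By group, 3 of 8 tested carriers other than Slc2a2 lay above 0 (median -0.04). The smallest p-values were those of Slc2a3 (0.60 ± 0.320), Slc2a1 (-0.39 ± 0.262) and Slc2a6 (0.61 ± 0.567), the first and last below 1 CPM in each liver. With 1 library left out these ran from 0.37 (without Zpbp2 KO replicate 3) to 0.74, from -0.71 to -0.17 (without Zpbp2 KO replicate 2) and from 0.24 (without WT replicate 3) to 1.49 (without WT replicate 2). Of the genes listed for the phosphorylation of glucose, the 5 read beside Gckr lay above 0 (median 0.04), with Hk3 at 0.52 ± 0.333 and Hkdc1 at 0.54 ± 0.417. Without Zpbp2 KO replicate 3, where Hk3 had 10.6 CPM against 3.82 to 6.15 CPM elsewhere, these values were 0.06 and 0.18, and without WT replicate 2 that of Hkdc1 was 0.25. Adpgk turned to -0.08 without Zpbp2 KO replicate 2. Of the tested genes listed for phosphofructokinase and fructose 2,6-bisphosphate, other than Pfkl, Pfkfb1 and Pfkfb3, 2 of 6 lay above 0 (median -0.03). Of the 4 other genes read for fructose breakdown and the polyol route, 3 lay above 0 (median 0.05), with Akr1b3, aldose reductase, at 0.28 ± 0.149, Aldh2 at 0.06 ± 0.115 and glycerate kinase Glyctk at 0.04 ± 0.0860. The sign of Aldh2 turned without Zpbp2 KO replicate 2.

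The other glycolytic enzymes had 5 of 13 above 0 (median -0.02). Aldoc stood at 0.23 ± 0.156, Eno3 at -0.33 ± 0.265 and Pgam1 at -0.09 ± 0.0890. Eno3, the muscle enolase, had 8.96 CPM in WT replicate 1 and 4.27 to 5.92 CPM elsewhere, and its log2 fold change was 0.01 without that library. Aldoc stood at 0.06 without Zpbp2 KO replicate 3. Among the genes listed for sugar-responsive transcription, 12 of 20 lay above 0 (median 0.05).

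The thioredoxin-interacting protein gene Txnip, a well-known sugar-induced transcript, stood at 165, 93.4 and 62.3 CPM in WT and 79.2, 51.5 and 84.3 CPM in Zpbp2 KO livers (-0.58 ± 0.334). Its relative Arrdc4 stood at 12.8 ± 2.75 and 9.04 ± 2.16 CPM (-0.50 ± 0.217), and the hepatocyte factor gene Foxa2 at 28.8 ± 8.15 and 37.9 ± 5.68 CPM (0.39 ± 0.214). Mlxipl, the gene for ChREBP, was at 426 ± 83.2 and 476 ± 91.6 CPM (0.16 ± 0.181). For these 4 genes the Benjamini-Hochberg-adjusted p-values in edgeR were 0.798, 0.798, 0.798 and 0.862. Without WT replicate 1 the log2 fold change of Txnip was -0.12, that of Arrdc4 -0.36 and that of Foxa2 0.18, and Mlxipl turned to -0.01 without Zpbp2 KO replicate 2.

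**Figure D5:**
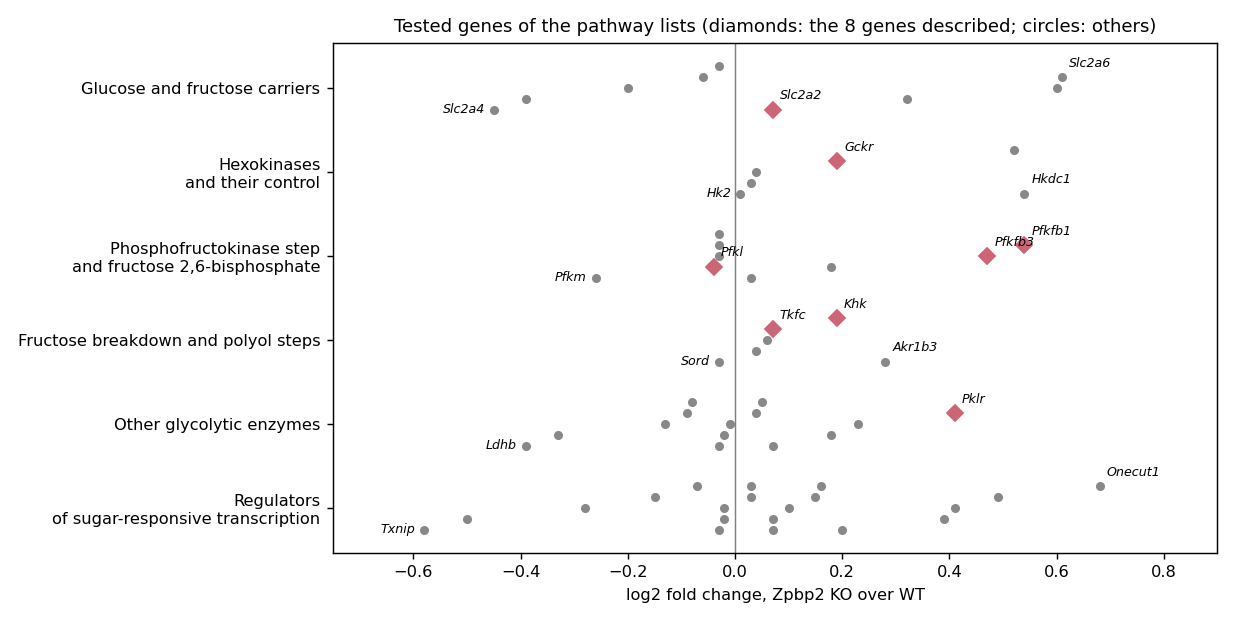
Log2 fold change, Zpbp2 KO over WT (x axis), of the tested genes read on 6 pathway lists (rows); diamonds are the 8 genes described and circles the other genes, with the lowest and highest of each list named. Values run from -0.58 for Txnip to 0.68 for Onecut1, and 0 of them passed edgeR's adjusted threshold.

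Over the 6 livers, the pathway gene whose centred log2 CPM lay nearest to each of the 8 was found among 63 candidates. The root mean square difference, in log2 units, is a description of these libraries, since all genes share each library's depth and tissue mix. Slc2a2 lay nearest to Klf15 (0.151, where Slc2a2 itself varied by 0.328), Pfkfb1 to Foxa2 (0.162 of 0.351) and Pklr to Max (0.151 of 0.356). Gckr lay nearest to Gapdh (0.0849 of 0.166), Tkfc to Adpgk (0.124 of 0.208), Khk to Usf1 (0.0728 of 0.131) and Pfkl to Usf2 (0.0543 of 0.0879). A second gene lay almost as near to Tkfc (Gpi1, 0.126) and to Khk (Aldh2, 0.0739). Pfkfb3 lay nearest to Hkdc1 (0.332 of 0.668).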

How the data were processed

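RNA from 6 livers was sequenced after poly(A) selection and directional cDNA synthesis from 250 ng of total RNA, per the labels' protocols. The table the authors deposited holds raw counts for each Ensembl gene ID, 1 column a liver. STAR, Picard, HTSeq and mm9 are named per the submitters' processing notes, and versions, annotation and strand setting were not given in the sources used here. Per the labels, 3 livers of each genotype were collected, 1 library each, and the SD is taken to be the spread between animals. Each column was matched to its sample by title. A reference table of gene IDs and symbols matched 86.6% of IDs, and exon lengths came from GENCODE M21.

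Genes kept by filterByExpr (minimum count 10) were scaled by TMM and tested two-sided with the quasi-likelihood F-test of edgeR 4.0.16 in R 4.3.3, with no covariate and Benjamini-Hochberg adjustment over all tested genes (threshold 0.05). CPM values use TMM-scaled library sizes, SEs are those implied by the test, and centred log2 CPM for the nearest-gene measure used a prior count of 2. A zero count allows up to 3 counts, a limit that covers counting error only, since PCR copies were not told apart. Alternatives were DESeq2 1.42.0, limma-voom (limma 3.58.1), other scalings and filters, a robust fit, the replicate block, removal of the length and GC trend, and each library left out. Tests were checked on simulated counts. The 8 genes and all lists were chosen with earlier results of these data known. Besides the 8, the text names called genes of each list or, with none, the 3 smallest p-values, fixed partners (Pkm, Pfkfb2, Pfkfb4 and Mlxipl) and the nearest gene to each of the 8; other genes were named after their values were seen. The smallest p-values within a list are no test of that list. Some genes of these lists are not reported here. Symbols matched RefSeq promoter windows for all 8 genes.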

Additional observations from a re-analysis of the deposited data

How the results depend on the processing

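The count of 0 of the 8 genes called, and of 0 pathway genes, held under every alternative run. Over all genes the count of 2 became 76 with DESeq2, 12 with no filter on low counts, 2 to 4 with each library left out in turn (3 without Zpbp2 KO replicate 1, 4 without Zpbp2 KO replicate 2), and 0 without both WT replicate 1 and Zpbp2 KO replicate 1, an alternative of 2 livers against 2 added after seeing the data. The cause was not tested. Replicate numbers gave no clear sign of pairing, which 3 livers a group cannot exclude. Deviations of same-numbered livers correlated at 0.142, 0.197 and -0.237, and not every liver correlated best with its own number. With the replicate block 2 genes were called. Of 128 estimates for the 8 genes, 122 kept their sign. The signs that turned, with 1 library or both of those libraries left out, were those of Slc2a2 (-0.15 to 0.51), Tkfc (-0.12 to 0.28) and Pfkl (-0.08 to 0.04, and 0.01 with the length and GC trend removed).

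Among the other named genes the sign turned in the same way for Adpgk (-0.08 to 0.14), Aldh2 (-0.02 to 0.13), Eno3 (-0.49 to 0.04, and 0.01 without WT replicate 1), Fbp1 (-0.09 to 0.07), Gapdh (-0.03 to 0.13), Klf15 (-0.14 to 0.31), Mlxipl (-0.01 to 0.26), Pfkfb2 (-0.18 to 0.23), Pfkfb4 (-0.23 to 0.13), Pkm (-0.01 to 0.44) and Usf2 (-0.06 to 0.06). Pfkfb2 (-0.01) turned with library totals, and Klf15 (-0.02) with the length and GC trend removed. Without both libraries Fbp1 stood at 0.06 and Usf2 at 0.04. The differences in share of Pfkfb3 (-2.52 to 6.11 percentage points) and Pklr (-0.625 to 1.11) also turned with a library left out. With 3 livers a group, the 95% interval of Slc2a2 still allowed a fold of 0.71 to 1.55 and that of Pfkfb3 one of 0.70 to 2.73.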

Other observations

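Transcripts of some genes of sugar uptake and glycolysis were highest in WT replicate 1, the liver with muscle markers such as Acta1 at 39.4 CPM and Ckm at 19.9 CPM. These genes were picked after their values were seen. The muscle phosphoglycerate mutase gene Pgam2 stood at 1.35 CPM there and at 0 to 0.0383 CPM in the other 5 livers. Slc2a4, the insulin-regulated carrier GLUT4 of muscle and fat, stood at 1.62 CPM against 0.105 to 0.575 CPM, and Ldhb, the heart-type lactate dehydrogenase subunit, at 4.40 CPM against 1.46 to 2.09 CPM. Hexokinase 2 (Hk2) had 2.54 CPM there, but Zpbp2 KO replicate 3, with 0.230 CPM summed over the muscle markers, was close at 2.39 CPM. Pkm was not highest there, at 21.8 CPM beside 24.0 CPM in Zpbp2 KO replicate 1 and 22.1 CPM in Zpbp2 KO replicate 3. The GLUT5 fructose carrier gene Slc2a5 and Srebf1, the gene for SREBP1, had their highest levels in Zpbp2 KO replicate 3, at 8.87 and 544 CPM, against 3.66 to 6.23 and 248 to 398 CPM in the other livers.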
